A study of Rattus norvegicus with 18 samples.

Results

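The comparison of 48 h with 4 h of phenylephrine (PE) in cultures given SR9009 sets the late transcriptome of stimulated heart muscle cells against the early one. Genes were taken where both groups had a usable value above 0 and where the mean over all 6 groups was at least 1 FPKM (fragments per kilobase of transcript, scaled to the mapped fragments). This gave 10422 of the 17312 genes listed. A further 118 genes with that mean were listed at 0 in a compared group, and 5 had too many fragments there for an estimate, Myh6 and Myh7 among them. Of the 10422, 16 had a value outside its own confidence bounds and entered no count, which left 10406 measured genes.

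The cells were neonatal rat ventricular myocytes, primary heart muscle cells from Sprague-Dawley pups at day 2, plated with serum and then kept in a serum-free medium with ITS. The groups compared had SR9009 for 24 h and then PE for 48 h or 4 h, so the agonist preceded PE in both. Beside them stand SR9009 cultures at 0 h of PE and vehicle cultures at 48, 4 and 0 h, with 3 libraries in each group and 18 in all. The authors combined the 3 libraries of a group into 1 FPKM with a lower and an upper bound, which leaves no spread between libraries to test against.

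Within the SR9009 arm, the time in PE, the time since SR9009 was first given and the age of the culture move together and cannot be told apart. The labels do not say whether SR9009 or PE was renewed over 48 h, or whether the libraries of a group came from separate cell preparations. Cultures kept for 48 h without PE were not analysed here. In RNA from a whole culture, fewer cells of a type and less RNA per cell cannot be told apart.

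PE activates α1-adrenergic receptors, which couple through Gq to calcium release, protein kinase C and ERK, and makes cultured myocytes enlarge. Its early response is led by immediate early transcription factors and growth-related genes, its late response by fetal genes such as the natriuretic peptides. SR9009 is a synthetic agonist of the REV-ERBs (REV-ERBα from Nr1d1, REV-ERBβ from Nr1d2), heme-binding nuclear receptors that repress transcription and form an arm of the circadian clock.

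Defining cardiomyocyte markers were abundant in both groups. Cardiac troponin T (Tnnt2) stood at 4176 FPKM at 48 h and 3098 FPKM at 4 h, cardiac actin (Actc1) at 9484 FPKM at 48 h and 10174 FPKM at 4 h and the transcription factor Nkx2-5 at 105 FPKM at 48 h and 119 FPKM at 4 h. The summed FPKM of all genes was 656724 at 48 h and 670517 at 4 h, and 3013 and 3478 genes were listed at 0. A listed 0 can be a failed estimate: the collagen gene Col1a2 was listed at 0 in all 6 groups, with Col1a1 at 509 FPKM at 48 h and 403 FPKM at 4 h. The distance of a bound from its value had a median of 14.93% of that value at 48 h and 14.84% at 4 h, among genes with 5 FPKM or more. Sequencing depth is unknown.

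At 48 h of PE against 4 h, a small share of all genes differed past the rule used here. Differences are of log2(FPKM + 1), 48 h minus 4 h, which understates the change of low genes, and the range after each is the widest that the bounds of the 2 groups allow. Genes were counted where their difference was at least 1 (a 2-fold change of FPKM + 1) and that range excluded 0, which means that the bounds of the 2 groups do not overlap. By this rule of size, which is no test, 259 of 10406 genes were higher at 48 h (2.49%) and 208 were lower (2.00%), 4.49% in all. The excess of higher genes depended on the scaling: there were 219 higher and 218 lower after quantile normalization, and 238 higher and 227 lower after median centring. The median difference of all measured genes was 0.03, with quartiles of -0.22 and 0.30, and 53.5% of them lay above 0. These are the shares and the median against which the counts of each group of genes below are set. Just inside the minimum mean lay Tspan1 (0.67 FPKM at 48 h and 0.878 FPKM at 4 h, difference -0.17) and Nos3 (0.79 and 1.49 FPKM, -0.48), and just outside it RT1-T24-1 (1.05 and 0.778 FPKM, 0.21) and Cyp2r1 (0.846 and 0.794 FPKM, 0.04).

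**Figure D1:**
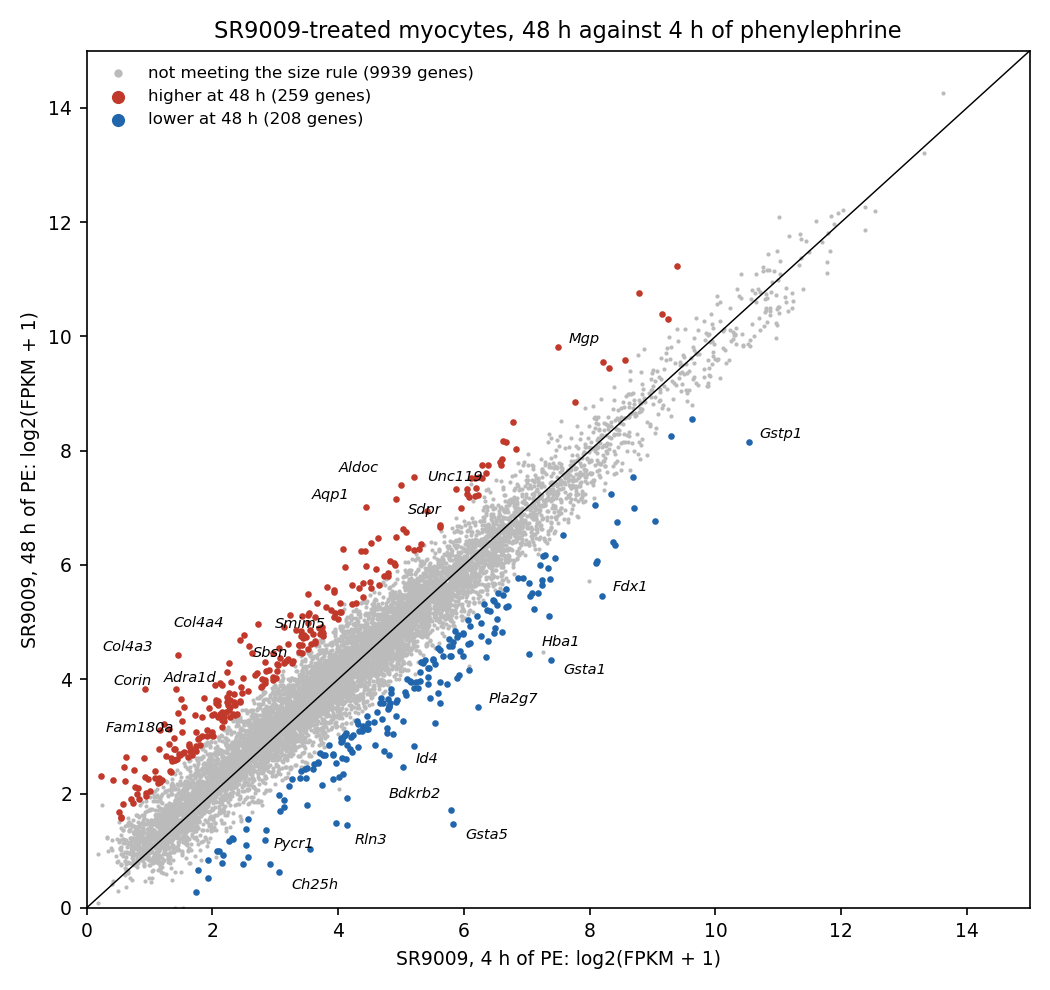
Each point is 1 of the 10406 measured genes, with log2(FPKM + 1) after 48 h of PE on the vertical axis and after 4 h on the horizontal axis, both in SR9009; the line marks equal values. The 259 genes counted as higher lie above the line and the 208 counted as lower lie below it, with Gsta5 and Bdkrb2 farthest below and Col4a3 farthest above among the genes named.

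Read by list, the falls and rises gathered in different functions. The lowest medians of the pathway lists were those of glutathione transferases and metallothioneins (-1.21), ATF4 amino acid response genes (-1.09), ribosome biogenesis genes (-0.94) and NRF2 antioxidant genes (-0.84). The highest were those of ion channel genes (0.62), elastic fibre genes (0.53) and collagens (0.50).

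**Figure D2:**
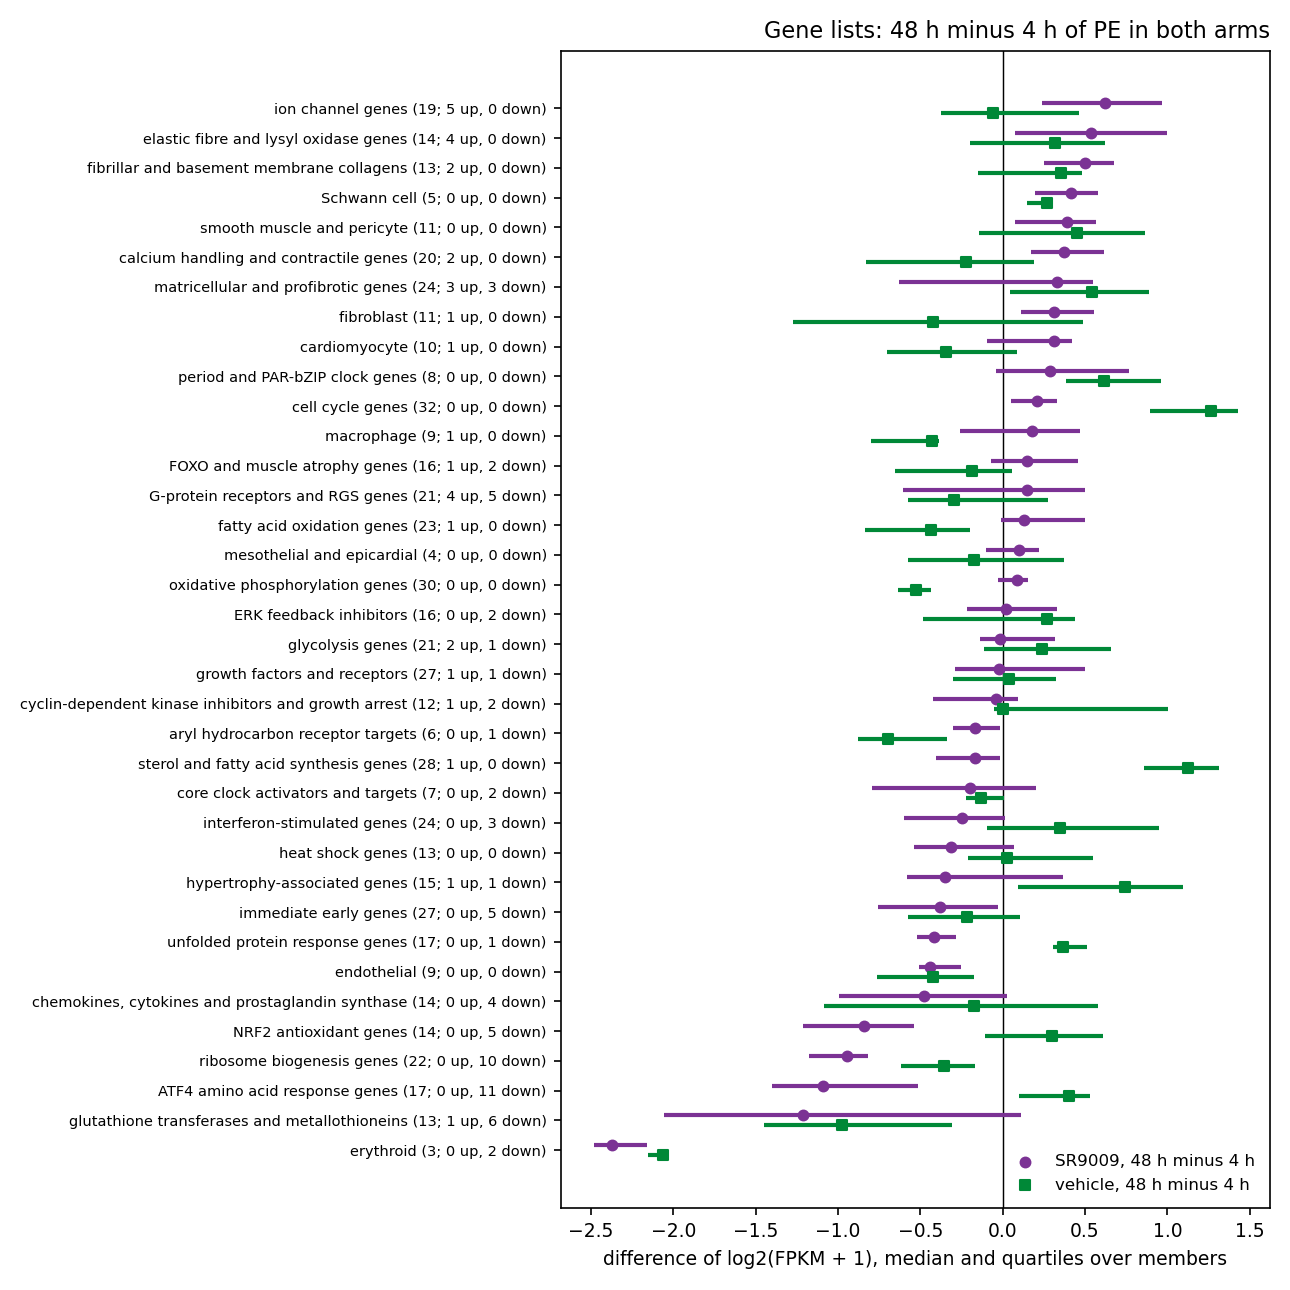
Median (symbol) and quartiles (line) of the difference of log2(FPKM + 1), 48 h minus 4 h of PE, over the measured members of each gene list, in SR9009 above and in vehicle below. Numbers in parentheses are the members measured in SR9009 and those counted as higher (up) and lower (down) there; ATF4 response genes (median -1.09) and ribosome biogenesis genes (-0.94) lie at the low end and ion channel genes (0.62) at the high end.

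Genes of detoxification and metal binding held several of the deepest falls. Of 13 measured glutathione transferase and metallothionein genes, 6 were lower at 48 h, 1 was higher, and the median difference was -1.21. Gsta5, an alpha-class glutathione transferase that conjugates electrophiles, had 1.77 FPKM (bounds 0.842 to 2.69) at 48 h and 55.9 FPKM (bounds 46.5 to 65.2) at 4 h, a difference of -4.36 (-5.17 to -3.69). It is the deepest fall of all measured genes. Gsta1 had 19.2 FPKM (bounds 16.3 to 22.2) and 166 FPKM (bounds 142 to 191), a difference of -3.05 (-3.47 to -2.62). The pi-class enzyme Gstp1, the most abundant of them, had 283 FPKM (bounds 241 to 326) and 1489 FPKM (bounds 1273 to 1705), a difference of -2.39 (-2.82 to -1.96). Several of these genes have near-identical copies, between which the reads may have been split, so the value of a single copy is uncertain.

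Glutathione transferases fell in vehicle as well. There Gsta1 had 7.15 FPKM at 48 h and 32.6 FPKM at 4 h and Gstp1 184 FPKM at 48 h and 526 FPKM at 4 h, differences of -2.04 and -1.51, and the list as a whole had 6 lower members of 13 with a median of -0.98. Of all genes in vehicle 3.85% were higher and 2.37% lower, 6.22% in all. SR9009 cultures held more Gsta1 mRNA at all 3 times and more Gsta5 mRNA at 0 h and 4 h. At 48 h Gsta5 was low in both arms. Its bounds there overlapped, at 0.842 to 2.69 FPKM in SR9009 and 0 to 1.46 FPKM in vehicle. Over the times of PE, Gsta1 stood at 101, 166 and 19.2 FPKM at 0, 4 and 48 h in SR9009, against 28.3, 32.6 and 7.15 FPKM in vehicle, and Gsta5 at 32.7, 55.9 and 1.77 FPKM at 0, 4 and 48 h, against 3.29, 3.59 and 0.425 FPKM. At 48 h SR9009 cultures were below their own 0 h value for both genes. Subtracting the vehicle change from that in SR9009 left -2.68 (-5.02 to -1.0) for Gsta5 and -1.0 (-1.91 to -0.07) for Gsta1, the second at the edge of the rule, and -0.88 (-1.72 to -0.04) for Gstp1, which did not meet it. Other members went the opposite way. Of 13, 4 met the rule between the arms on the lower side and 4 on the higher side, with a median of 0.07, against 4.05% lower and 4.07% higher of all 10394 genes measured in both arms, 8.12% in all. Gstm2, the 1 member counted as higher in SR9009, had 182 FPKM at 48 h and 77.3 FPKM at 4 h in SR9009 (1.23, range 0.80 to 1.66), against 45.9 FPKM at 48 h and 88.4 FPKM at 4 h in vehicle, a difference between the arms of 2.16 (1.29 to 3.03). The other higher ones, named after their values were seen, were Mgst3 (1.16), Gstk1 (1.21) and Gstm1 (1.10).

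The metallothioneins, small cysteine-rich proteins that bind zinc and copper, were lower late in SR9009. Mt1a had 107 FPKM (bounds 88.9 to 125) at 48 h and 346 FPKM (bounds 304 to 388) at 4 h in SR9009, a difference of -1.69 (-2.11 to -1.28), against 85.2 FPKM at 48 h and 87.6 FPKM at 4 h in vehicle, a difference of -0.04 (-0.54 to 0.45). Mt2A had 64.7 FPKM (bounds 51.6 to 77.7) and 272 FPKM (bounds 243 to 302) in SR9009, a difference of -2.06 (-2.52 to -1.63), against 33.8 FPKM at 48 h and 67.6 FPKM at 4 h in vehicle, a difference of -0.98 (-1.63 to -0.40). Set against vehicle, the change in SR9009 was -1.65 (-2.57 to -0.74) for Mt1a and -1.08 for Mt2A, whose range from -2.12 ends just below 0. Under a pseudocount of 0.1, rescaling to equal sums or quantile normalization, neither Mt2A nor Gsta1 met the rule for the difference between the arms, and Gsta5 did not under the smaller pseudocount. Before PE both genes were already high in SR9009: 345 FPKM for Mt1a and 260.4 FPKM for Mt2A, against 74.4 and 59.5 FPKM in vehicle.

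The 2 genes lie 4958 bases apart on chromosome 19 of rn6 (11301991-11303007 and 11307966-11308740), and both promoter windows hold matches to the metal response element, the sequence bound by the zinc-sensing factor MTF-1. They are shown because the pair moved together. The windows are the 250 bases before the start site in RefSeq, build GRCr8, at chr19:10832976-10833225 (- strand), where RefSeq names the gene Mt1, and chr19:10838709-10838958 (- strand), printed 5′ to 3′ along the gene. Capitals mark TGCGCNC or TGCACNC on either strand, found 6 times for Mt1a and 4 times for Mt2A. The same letters occur in 6 of 12 genes of the list and in 3 of its 6 lower members, against 32.9% of all 8446 genes with a window. A match therefore describes the sequence and is no evidence of binding.
Mt1a: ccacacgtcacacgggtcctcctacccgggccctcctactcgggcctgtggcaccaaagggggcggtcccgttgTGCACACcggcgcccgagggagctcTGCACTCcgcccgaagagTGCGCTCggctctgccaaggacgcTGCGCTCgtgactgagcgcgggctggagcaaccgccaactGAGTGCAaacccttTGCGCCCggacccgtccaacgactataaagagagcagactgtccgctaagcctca
Mt2A: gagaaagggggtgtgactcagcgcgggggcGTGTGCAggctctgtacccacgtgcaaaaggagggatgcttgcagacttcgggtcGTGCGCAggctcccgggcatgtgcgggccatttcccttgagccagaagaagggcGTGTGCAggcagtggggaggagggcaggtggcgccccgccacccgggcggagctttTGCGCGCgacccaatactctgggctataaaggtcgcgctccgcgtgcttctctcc

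Antioxidant genes controlled by NRF2, the factor that is released from KEAP1 by oxidants and electrophiles, lay below 0 as a group. Of 14 measured, 5 were lower at 48 h, 0 were higher, and all 14 had a difference below 0, with a median of -0.84. Txnrd1, cytosolic thioredoxin reductase, had 66.2 FPKM (bounds 56.3 to 76) at 48 h and 275 FPKM (bounds 235 to 316) at 4 h, a difference of -2.04 (-2.47 to -1.61). These bounds are far apart. Srxn1, which restores over-oxidised peroxiredoxins, had 14.1 FPKM at 48 h and 52.2 FPKM at 4 h, a difference of -1.82 (-2.22 to -1.42). Nqo1, a quinone reductase, had 53 FPKM at 48 h and 165 FPKM at 4 h, a difference of -1.62 (-2.04 to -1.20). The cystine transporter gene Slc7a11, which supplies glutathione synthesis, had 1.59 FPKM at 48 h and 4.77 FPKM at 4 h (-1.16). Nqo1 was also the 1 lower member of 6 measured targets of the aryl hydrocarbon receptor, a sensor of planar aromatic compounds.

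In vehicle 3 of the 14 genes were higher at 48 h and 0 were lower, with a median of 0.30. Subtracting the vehicle change from that in SR9009 gave differences that met the rule of size, on the lower side, for 7 of 14 genes and on the higher side for 0, against 4.05% and 4.07% of all genes. Nqo1 was not among them: it had 23.9 FPKM at 48 h and 47.5 FPKM at 4 h in vehicle, -0.96 (-1.38 to -0.54), and its difference between the arms was -0.66 (-1.50 to 0.19). For Srxn1, with 34 FPKM at 48 h and 15.3 FPKM at 4 h in vehicle, it was -2.92 (-3.72 to -2.13). For Txnrd1, with 97.3 FPKM at 48 h and 119 FPKM at 4 h in vehicle, it was -1.76 (-2.61 to -0.91). Txnrd1 stood at 154, 275 and 66.2 FPKM at 0, 4 and 48 h in SR9009, against 78.1, 119 and 97.3 FPKM in vehicle, so that SR9009 cultures lay above vehicle at 0 h and 4 h and below it at 48 h.

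The Txnrd1 promoter window, at chr7:22755905-22756154 (- strand) in GRCr8, holds an antioxidant response element core, TGACNNNGC on either strand, whose match begins 78 bases before the start site and is in capitals. RefSeq gives the gene 2 windows, and the one with the match is shown, because NRF2 binds this element. Such a core occurs in a window of 4 of the 11 list members that have one, of 1 of the 4 counted as lower and of 13.4% of all genes. Such a core can overlap the AP-1 site TGACTCA, which the match marked here does not contain.
Txnrd1: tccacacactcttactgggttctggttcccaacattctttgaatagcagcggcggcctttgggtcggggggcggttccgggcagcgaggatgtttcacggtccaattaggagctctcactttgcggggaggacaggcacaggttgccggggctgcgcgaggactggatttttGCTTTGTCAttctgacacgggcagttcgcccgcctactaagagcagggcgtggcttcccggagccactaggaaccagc

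The amino acid response, the genes that ATF4 switches on when amino acids are short or the endoplasmic reticulum is stressed, fell widely. Of 17 measured members 11 were lower at 48 h and 0 were higher, with a median of -1.09. Slc3a2, the heavy chain shared by the large neutral amino acid and cystine transporters, had 80.8 FPKM (bounds 69.3 to 92.2) at 48 h and 337 FPKM (bounds 289.8 to 384) at 4 h, a difference of -2.05 (-2.45 to -1.64). Enzymes of serine synthesis and of mitochondrial folate metabolism fell with it. Mthfd2 had 28.8 FPKM at 48 h and 89.6 FPKM at 4 h (-1.61). Phgdh had 32.3 FPKM at 48 h and 90.9 FPKM at 4 h (-1.47). Shmt2 had 37.5 FPKM at 48 h and 101 FPKM at 4 h (-1.40). In each of them the 48 h bounds lie below the 4 h bounds. Asparagine synthetase (Asns) had 23.5 FPKM at 48 h and 66 FPKM at 4 h, a difference of -1.45 (-1.88 to -1.01). Outside the list, Pycr1, which makes proline, had 1.81 FPKM (bounds 0.856 to 2.77) and 14.6 FPKM (bounds 11.4 to 17.7), a difference of -2.47 (-3.33 to -1.72). Also outside it, the cationic amino acid transporter gene Slc7a3 had 5.72 FPKM at 48 h and 25.5 FPKM at 4 h (-1.98, range -2.43 to -1.55).

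Atf4 itself had 139 FPKM at 48 h and 224 FPKM at 4 h, a difference of -0.68 (-1.10 to -0.28), and did not meet the rule. In vehicle 1 of 17 members was higher and 0 were lower, with a median of 0.41, and the difference between the arms met the rule on the lower side for 12 of 17. In vehicle Slc3a2 had 139 FPKM at 48 h and 140.0 FPKM at 4 h, and its difference between the arms was -2.03 (-2.86 to -1.20). For Pycr1 the vehicle values were 8.57 FPKM at 48 h and 3.87 FPKM at 4 h and the difference between the arms -3.44 (-5.12 to -1.93). Over time Slc3a2 stood at 281, 337 and 80.8 FPKM at 0, 4 and 48 h in SR9009, against 139, 140.0 and 139 FPKM in vehicle. Asns stood at 67, 66 and 23.5 FPKM at 0, 4 and 48 h in SR9009, against 35.5, 34.4 and 51.7 FPKM in vehicle. For both genes the SR9009 values were the higher ones at 0 h and 4 h and the lower ones at 48 h. Among 17 measured genes of the wider unfolded protein response, 1 was lower (Sdf2l1, 17.4 FPKM at 48 h and 42 FPKM at 4 h, -1.23) and 15 had a difference below 0, with a median of -0.42.

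Of the 17 members with a promoter window, 2 hold the C/EBP-ATF response element TGATGNAA on either strand, against 1.82% of all genes with a window. These are Trib3, an inhibitor of AKT, at chr3:161275534-161275783 (- strand), and Chac1, which degrades glutathione, at chr3:126795881-126796130 (+ strand), both in GRCr8. They are shown for this match and were chosen after it was seen. Trib3 had 9.30 FPKM at 48 h and 20.9 FPKM at 4 h (-1.09) and Chac1 4.28 FPKM at 48 h and 9.57 FPKM at 4 h (-1.0), so Chac1 lay at the edge of the rule. Capitals mark the element, which begins 21 bases before the start site in Trib3 and 167 in Chac1.
Trib3: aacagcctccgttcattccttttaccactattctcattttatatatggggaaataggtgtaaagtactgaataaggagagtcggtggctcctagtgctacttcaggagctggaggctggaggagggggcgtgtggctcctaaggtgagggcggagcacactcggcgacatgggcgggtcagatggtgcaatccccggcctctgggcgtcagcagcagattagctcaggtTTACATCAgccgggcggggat
Chac1: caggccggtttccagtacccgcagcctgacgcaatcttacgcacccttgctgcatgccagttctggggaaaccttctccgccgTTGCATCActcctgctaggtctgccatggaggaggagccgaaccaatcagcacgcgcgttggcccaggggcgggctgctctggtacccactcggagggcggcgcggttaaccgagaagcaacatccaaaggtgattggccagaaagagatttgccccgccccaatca

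Genes for making ribosomes in the nucleolus lay below 0 throughout. All 22 measured members had a difference below 0, with a median of -0.94, and 10 were counted as lower. Gnl3 (nucleostemin), a nucleolar GTPase of large subunit assembly, had 21.7 FPKM (bounds 18.4 to 25) at 48 h and 60.2 FPKM (bounds 51.2 to 69.1) at 4 h, a difference of -1.43 (-1.86 to -1.01). The next 4 lay close together. Wdr43, of small subunit assembly, had 14.5 FPKM at 48 h and 36.7 FPKM at 4 h (-1.28). The RNA methyltransferase gene Nop2 had 7.75 FPKM at 48 h and 20.1 FPKM at 4 h (-1.27). Polr1b, a subunit of RNA polymerase I, had 5.37 FPKM at 48 h and 14.2 FPKM at 4 h (-1.25). The assembly factor gene Nip7 had 17.2 FPKM at 48 h and 42.4 FPKM at 4 h (-1.25). Vehicle cultures had 0 of 22 members past the rule in either direction, with a median of -0.36. The difference between the arms was below 0 for all 22, with a median of -0.61, and met the rule for 2. Across the times of PE, Gnl3 stood at 35.8, 60.2 and 21.7 FPKM at 0, 4 and 48 h in SR9009, against 27.4, 68.8 and 40.2 FPKM in vehicle. In both arms the 4 h value was the highest of the 3. The E-box CACGTG, which MYC and clock activators bind, occurs in the promoter window of 4 of 18 members with a window, and of 1 of the 8 counted as lower, against 8.6% of all genes with one.

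**Figure D3:**
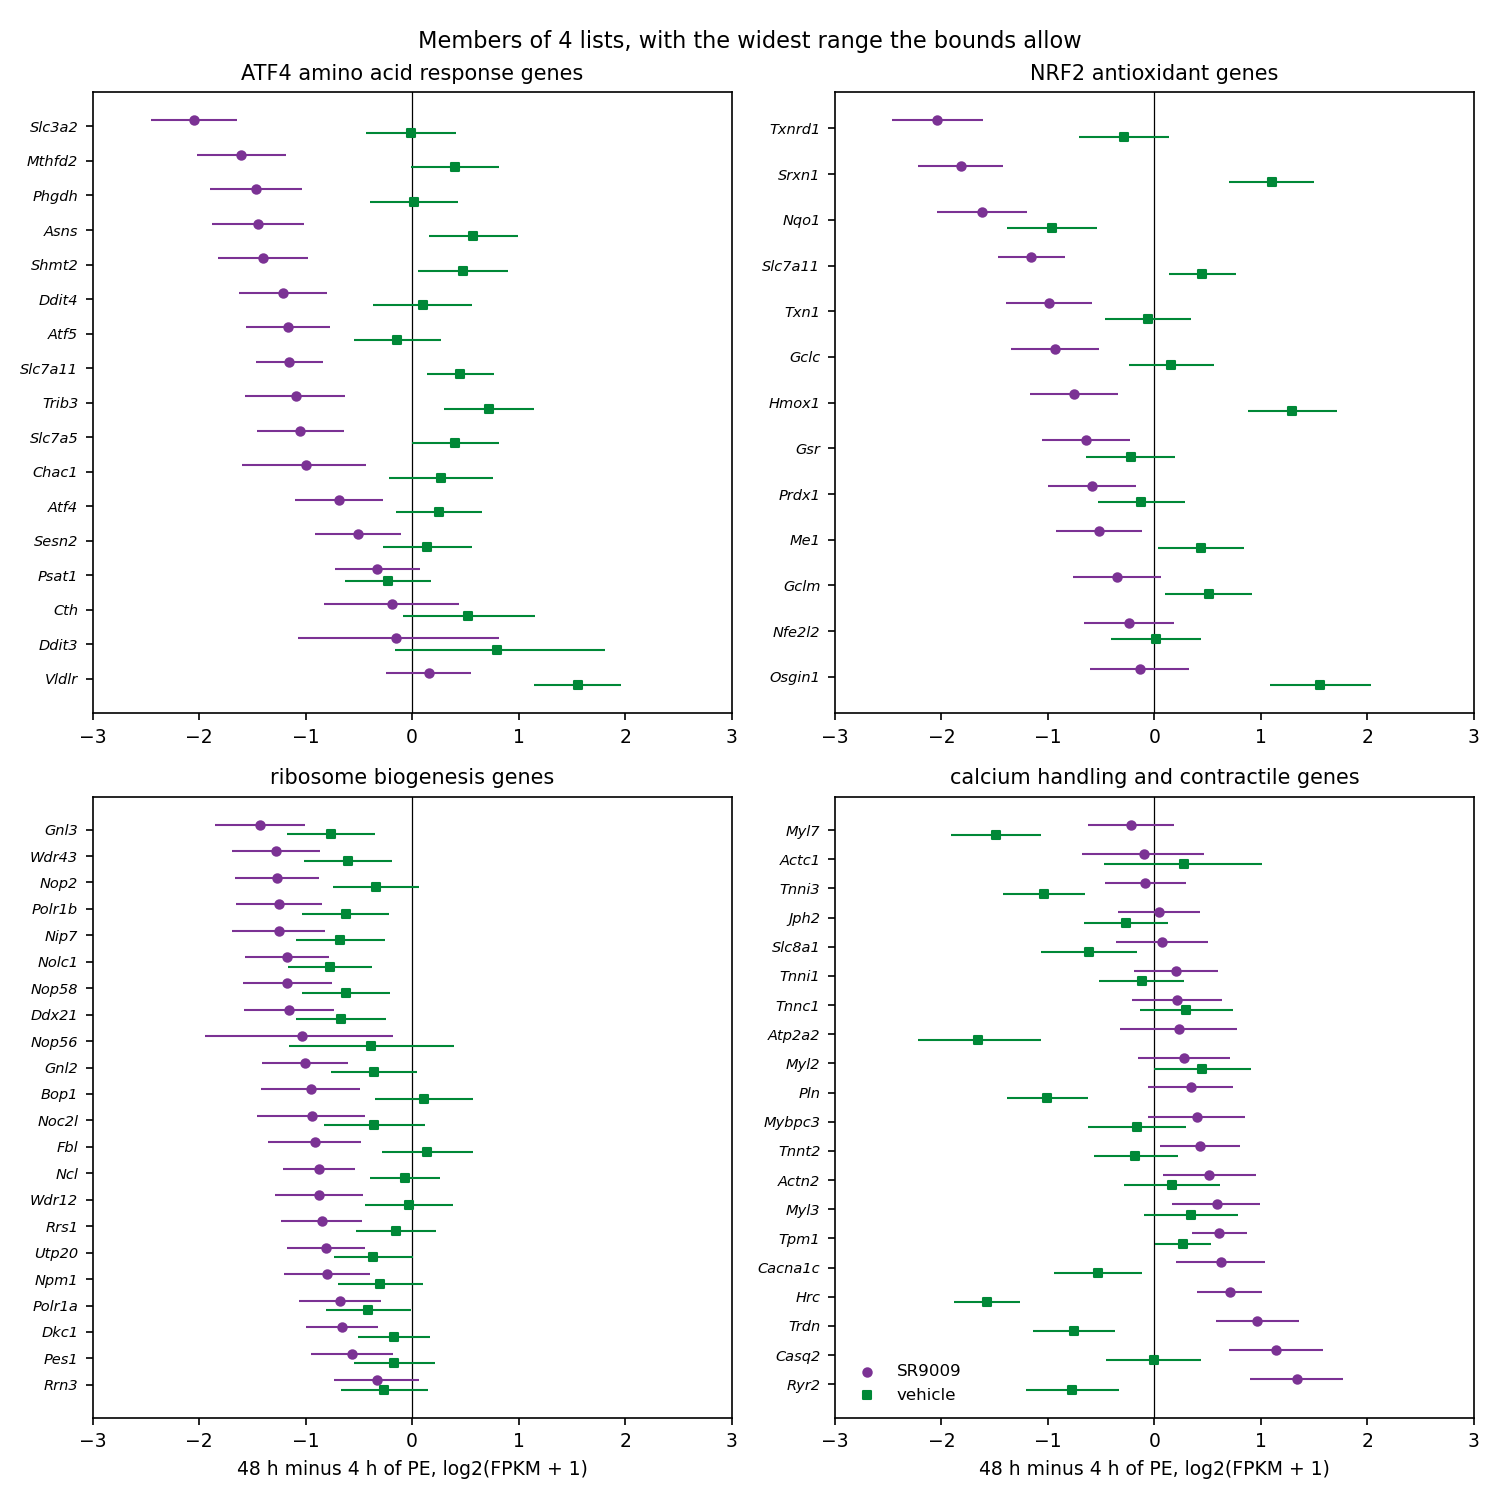
Difference of log2(FPKM + 1), 48 h minus 4 h of PE, for the measured members of 4 gene lists, all but 1 of the NRF2 list, in SR9009 (circles) and vehicle (squares), with lines for the widest range that the confidence bounds allow. In the ATF4, NRF2 and ribosome lists the SR9009 values lie mostly left of 0, down to -2.05 for Slc3a2, and in the calcium handling and contractile list 17 of 20 lie right of 0, up to 1.34 for Ryr2.

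Several immediate early transcription factors, which open the response to a growth stimulus, were lower late in PE. Of 27 measured, 5 were lower and 0 higher, with a median of -0.38. Nr4a3, an orphan nuclear receptor, stood at 0.630, 10.4 and 2.48 FPKM at 0, 4 and 48 h in SR9009, against 0.787, 18.7 and 4.07 FPKM in vehicle, a 48 h minus 4 h difference of -1.71 (-2.13 to -1.30) in SR9009. Fos stood at 8.51, 29.2 and 11.2 FPKM at 0, 4 and 48 h in SR9009 (-1.31, range -1.75 to -0.89). Nr4a1 stood at 4.55, 26.8 and 10.2 FPKM at 0, 4 and 48 h in SR9009 (-1.32, range -1.75 to -0.89). All 3 were highest at 4 h in both arms and met the rule in vehicle too, with -1.96 for Nr4a3, -1.27 for Fos and -2.23 for Nr4a1. A further member, Maff, a small partner of basic leucine zipper factors, had 3.83 FPKM at 48 h and 9.48 FPKM at 4 h (-1.12). Myc differed: it had 15.6, 8.31 and 3.38 FPKM at 0, 4 and 48 h in SR9009, against 6.12, 7.20 and 17.6 FPKM in vehicle, so its change was -1.09 in SR9009 and 1.19 in vehicle. Of 16 ERK feedback inhibitors, 2 were lower, the phosphatases Dusp2 (0.845 FPKM at 48 h and 4.92 FPKM at 4 h, -1.68) and Dusp5 (25.7 FPKM at 48 h and 58.2 FPKM at 4 h, -1.15), and both were also lower in vehicle (-1.27 and -1.64).

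Receptors and their regulators moved both ways, with 4 of 21 higher and 5 lower. Bdkrb2, the constitutive bradykinin receptor, had 2.27 FPKM (bounds 1.81 to 2.73) at 48 h and 54.6 FPKM (bounds 46.5 to 62.6) at 4 h, a difference of -4.09 (-4.50 to -3.67). Both arms were low before PE and high at 4 h, and the 48 h values were far apart: 2.94, 54.6 and 2.27 FPKM at 0, 4 and 48 h in SR9009, against 0.759, 42.9 and 32.7 FPKM in vehicle. The difference between the arms was -3.70 (-4.54 to -2.87). Rnd1, a small GTPase, had 15.8 FPKM at 48 h and 59.6 FPKM at 4 h (-1.85) in SR9009, against 94.4 FPKM at 48 h and 94.3 FPKM at 4 h in vehicle. S1pr3, a sphingosine 1-phosphate receptor, fell in both arms, with -1.26 in SR9009 and -1.28 in vehicle.

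Adra1d, the α1D-adrenergic receptor and itself a receptor for PE, was higher late. It had 11.6 FPKM (bounds 9.76 to 13.5) at 48 h and 1.82 FPKM (bounds 1.23 to 2.42) at 4 h, a difference of 2.16 (1.65 to 2.70). Over time it stood at 10.8, 1.82 and 11.6 FPKM at 0, 4 and 48 h in SR9009, against 36.3, 13.3 and 7.94 FPKM in vehicle. Between the arms the change differed by 2.84 (1.90 to 3.82). The endothelin receptor Ednra had 50.4 FPKM at 48 h and 20.0 FPKM at 4 h (1.29) in SR9009, against 24.2 FPKM at 48 h and 36.5 FPKM at 4 h in vehicle (-0.57), a difference between the arms of 1.86 (1.07 to 2.65).

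Several chemokines were lower. Of 14 measured chemokine, cytokine and prostaglandin synthase genes, 4 were lower and 0 higher, all 4 chemokines. Ccl2 and Ccl7 attract monocytes. Ccl2 had 38 FPKM at 48 h and 103 FPKM at 4 h (-1.41). Its neighbour Ccl7 had 7.37 FPKM at 48 h and 16.5 FPKM at 4 h (-1.06). The others act on neutrophils or from the cell surface. Cxcl1 had 4.86 FPKM at 48 h and 11.8 FPKM at 4 h (-1.13). The membrane-bound Cx3cl1 had 15.1 FPKM at 48 h and 33.1 FPKM at 4 h (-1.08). Vehicle differences were -1.13 for Ccl2, -1.17 for Ccl7, -2.22 for Cxcl1 and -0.97 for Cx3cl1, and 0 of these 4 met the rule for a difference between the arms. With bounds added in quadrature Cxcl1 did (1.09), on the higher side.

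By counts and medians, interferon-stimulated antiviral genes parted between the arms. Of 24 measured in SR9009, 3 were lower and 0 higher, with a median of -0.25, whereas in vehicle 6 were higher and 1 lower, with a median of 0.35. Their summed FPKM did not part and was lower at 48 h in both arms. It was 770.3 FPKM at 48 h and 899.9 FPKM at 4 h in SR9009, against 793.4 and 1198 FPKM in vehicle. Isg15, a ubiquitin-like modifier, had 13.4 FPKM at 48 h and 37.6 FPKM at 4 h in SR9009 (-1.42, range -2.0 to -0.89), against 71.3 FPKM at 48 h and 28.4 FPKM at 4 h in vehicle (1.30, range 0.83 to 1.77). Oasl had 0.790 FPKM at 48 h and 2.83 FPKM at 4 h in SR9009, against 9.54 FPKM at 48 h and 1.81 FPKM at 4 h in vehicle. Rsad2 (viperin) had 0.585 FPKM at 48 h and 2.41 FPKM at 4 h in SR9009, against 6.85 FPKM at 48 h and 1.14 FPKM at 4 h in vehicle. The difference between the arms was -2.72 for Isg15, -3.0 for Oasl and -2.98 for Rsad2, and 6 of 24 members met the rule on the lower side. Oasl and Rsad2 were low in both SR9009 groups, and with a minimum mean of 5 FPKM 1 member was counted as lower in SR9009.

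Among 7 measured core clock activators and targets, 2 were lower at 48 h and 0 higher: Arntl (BMAL1), the clock activator, and the repressor Nfil3, both textbook targets of REV-ERB repression. Arntl had 5.89 FPKM (bounds 4.90 to 6.89) at 48 h and 17.2 FPKM (bounds 14.6 to 19.8) at 4 h in SR9009, a difference of -1.40 (-1.82 to -0.98), against 13.3 FPKM at 48 h and 20.0 FPKM at 4 h in vehicle (-0.56, range -0.97 to -0.15). Nfil3 had 12.6 FPKM at 48 h and 27.7 FPKM at 4 h in SR9009 (-1.08, range -1.50 to -0.66), against 27.9 FPKM at 48 h and 31.2 FPKM at 4 h in vehicle (-0.16, range -0.57 to 0.26). The differences between the arms, -0.84 (-1.66 to -0.02) for Arntl and -0.92 (-1.76 to -0.08) for Nfil3, did not meet the rule of size. At 0 h Arntl stood at 7.39 FPKM in SR9009 and 7.50 FPKM in vehicle, so that it was highest at 4 h in both arms. The phase of the clock in the cells at each harvest is unknown. A difference of phase between 4 h and 48 h cannot be told apart from a late change of these genes.

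The receptors themselves did not meet the rule. Nr1d2 had 25.6 FPKM at 48 h and 17.1 FPKM at 4 h, a difference of 0.56 (0.19 to 0.92). Nr1d1 had 13.4 FPKM at 48 h and 11.2 FPKM at 4 h, a difference of 0.24 (-0.88 to 1.27), but its locus overlaps Thra on the other strand, and its value is uncertain where the counting did not use strand. Of 8 period and PAR-bZIP clock genes 0 were higher or lower, with a median of 0.29.

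The Arntl promoter is printed because it is a well-known site of REV-ERB action. Its window, at chr1:176766078-176766327 (+ strand) in GRCr8, where RefSeq names the gene Bmal1, holds the core TAGGTCA, in capitals, which begins 16 bases before the start site. Among 6 core clock genes with a window it is the only match on either strand, and 1.65% of all genes with a window have one.
Arntl: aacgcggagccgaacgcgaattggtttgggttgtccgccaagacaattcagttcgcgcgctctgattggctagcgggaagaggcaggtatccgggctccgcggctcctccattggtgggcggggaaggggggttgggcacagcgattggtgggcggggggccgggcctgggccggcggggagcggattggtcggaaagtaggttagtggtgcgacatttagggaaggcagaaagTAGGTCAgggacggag

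Other leading falls were shared by both arms or lay outside the lists. Fdx1, the mitochondrial ferredoxin that passes electrons to cytochrome P450 enzymes, had 43.1 FPKM (bounds 36.6 to 49.7) at 48 h and 292 FPKM (bounds 249.5 to 334) at 4 h, a difference of -2.73 (-3.16 to -2.31). Over the times of PE it had 43.1, 292 and 43.1 FPKM at 0, 4 and 48 h in SR9009, against 38.1, 306 and 45.8 FPKM in vehicle, and the difference between the arms was -0.01 (-0.87 to 0.84). Ch25h, cholesterol 25-hydroxylase, had 0.543 FPKM at 48 h and 7.37 FPKM at 4 h (-2.44, range -3.25 to -1.71), against 2.67 FPKM at 48 h and 16.5 FPKM at 4 h in vehicle (-2.26). Id4, an inhibitor of basic helix-loop-helix factors, had 4.51 FPKM at 48 h and 31.7 FPKM at 4 h (-2.57, range -3.07 to -2.09), against 19.9 FPKM at 48 h and 35 FPKM at 4 h in vehicle (-0.79). Pla2g7, which inactivates platelet-activating factor, had 10.4 FPKM at 48 h and 73.6 FPKM at 4 h (-2.71, range -3.14 to -2.27). The peptide hormone gene Rln3 had 1.72 FPKM at 48 h and 16.5 FPKM at 4 h (-2.69, range -4.12 to -1.65).

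Osteopontin (Spp1), a secreted matricellular protein, had 33.5 FPKM at 48 h and 162 FPKM at 4 h (-2.24, range -2.66 to -1.82), against 55.2 FPKM at 48 h and 37.3 FPKM at 4 h in vehicle (0.55). The activin subunit gene Inhba had 4.75 FPKM at 48 h and 11.2 FPKM at 4 h (-1.09), against 22.9 FPKM at 48 h and 10.4 FPKM at 4 h in vehicle (1.06). The EGF receptor ligand gene Areg had 0.732 FPKM at 48 h and 3.44 FPKM at 4 h (-1.36), against 4.07 FPKM at 48 h and 3.26 FPKM at 4 h in vehicle (0.25). Among 27 growth factor and receptor genes, Areg was the 1 lower member and Fgf9 the 1 higher (6.13 FPKM at 48 h and 2.09 FPKM at 4 h, 1.21). Of 12 growth arrest genes 1 was higher and 2 were lower. The CDK inhibitor gene Cdkn1a had 186 FPKM at 48 h and 414 FPKM at 4 h (-1.15). The stress sensor gene Gadd45g had 42.7 FPKM at 48 h and 131 FPKM at 4 h (-1.60). Ccng2, a cyclin of resting cells, had 14.3 FPKM at 48 h and 3.36 FPKM at 4 h (1.81). Of 16 FOXO and muscle atrophy genes 1 was higher and 2 were lower. Irs2, an adaptor of the insulin receptor, had 20.3 FPKM at 48 h and 62.2 FPKM at 4 h (-1.57). Cited2, a CBP-binding regulator, had 44.8 FPKM at 48 h and 143 FPKM at 4 h (-1.66). Pik3ip1, an inhibitor of phosphoinositide kinase, had 46.4 FPKM at 48 h and 14.2 FPKM at 4 h (1.64).

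**Figure D4:**
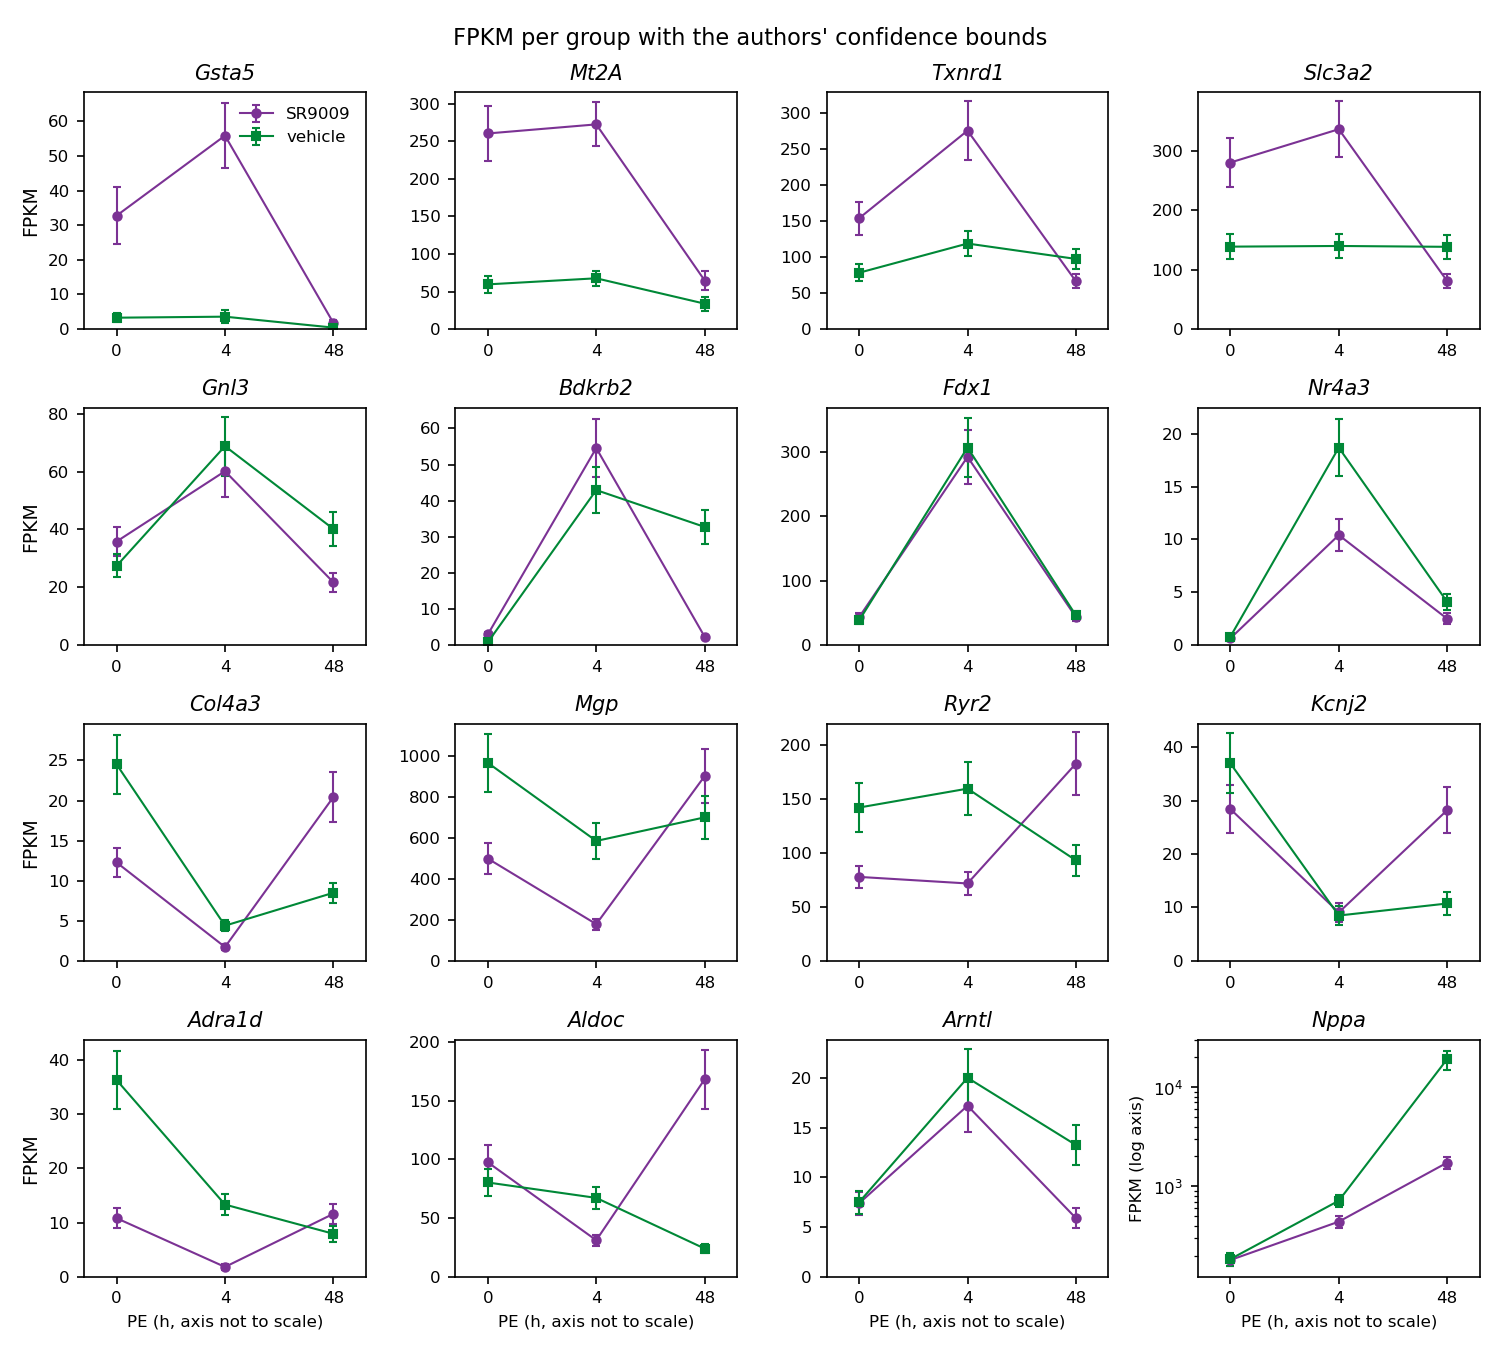
FPKM of 16 genes at 0, 4 and 48 h of PE in SR9009 (circles) and vehicle (squares), with the authors' confidence bounds; the time axis is not to scale and the Nppa axis is logarithmic. Gsta5, Mt2A, Txnrd1 and Slc3a2 are higher in SR9009 than in vehicle at 0 h and have their lowest SR9009 value at 48 h, Col4a3, Mgp, Ryr2 and Kcnj2 have theirs at 4 h, and Fdx1 follows the same course in both arms.

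Col4a3 had the largest rise of the genes named, and genes of basement membrane and elastic matrix were among those that rose. Col4a3 and Col4a4, chains of the type IV collagen network, rose together: Col4a3 had 20.4 FPKM (bounds 17.4 to 23.5) at 48 h and 1.73 FPKM (bounds 1.40 to 2.06) at 4 h, a difference of 2.97 (2.58 to 3.35), and Col4a4 had 26.3 FPKM (bounds 22.4 to 30.2) and 4.70 FPKM (bounds 3.66 to 5.73), a difference of 2.26 (1.80 to 2.74). They were 2 of 13 measured collagen genes counted as higher, with 0 lower and a median of 0.50. Both had their lowest value at 4 h in both arms. Col4a3 stood at 12.3, 1.73 and 20.4 FPKM at 0, 4 and 48 h in SR9009, against 24.5, 4.39 and 8.50 FPKM in vehicle. Col4a4 stood at 14, 4.70 and 26.3 FPKM at 0, 4 and 48 h in SR9009, against 22.1, 14.3 and 17.5 FPKM in vehicle. The differences between the arms were 2.16 (1.40 to 2.91) for Col4a3 and 1.99 (1.09 to 2.89) for Col4a4.

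The 2 genes are arranged head to head, at 88357751-88484376 and 88314763-88357183 on chromosome 9 of rn6, and their RefSeq start sites in GRCr8 lie 413 bases apart on opposite strands. The Col4a3 window, at chr9:91323740-91323989 (+ strand), lies wholly within that shared stretch and is printed as the sequence between the 2 genes, with no motif marked.
Col4a3: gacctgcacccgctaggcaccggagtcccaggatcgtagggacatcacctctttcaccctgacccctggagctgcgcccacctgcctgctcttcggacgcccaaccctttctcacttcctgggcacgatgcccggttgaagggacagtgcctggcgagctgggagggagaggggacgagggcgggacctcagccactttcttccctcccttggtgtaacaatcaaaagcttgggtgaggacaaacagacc

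Of 14 measured elastic fibre and lysyl oxidase genes, 4 were higher and 0 lower, with a median of 0.53. Elastin and a protein that binds it rose alike. Elastin (Eln) had 62.1 FPKM at 48 h and 20.7 FPKM at 4 h (1.54). The fibulin gene Fbln1 had 11.4 FPKM at 48 h and 3.24 FPKM at 4 h (1.54). The others were a crosslinking enzyme and a microfibril protein. Loxl1 had 64.3 FPKM at 48 h and 28.5 FPKM at 4 h (1.14). Mfap2 had 9.11 FPKM at 48 h and 3.83 FPKM at 4 h (1.06). Mfap2 did not meet the rule after quantile normalization (0.90). In vehicle 2 of the 14 were higher, with a median of 0.32. Elastin was highest before PE in both arms, at 128, 20.7 and 62.1 FPKM at 0, 4 and 48 h in SR9009, against 235, 49.7 and 44.7 FPKM in vehicle. At 0 h in SR9009 Fbln1 had 13.4 FPKM, Loxl1 84.8 FPKM and Mfap2 8.88 FPKM, with bounds that overlap those at 48 h. Matrix Gla protein (Mgp), an inhibitor of calcification, had 902 FPKM (bounds 772 to 1032) and 179 FPKM (bounds 153 to 206), a difference of 2.32 (1.90 to 2.75), against 700.4 FPKM at 48 h and 585 FPKM at 4 h in vehicle (0.26).

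Matricellular and profibrotic genes moved both ways, 3 of 24 higher and 3 lower. Sparc, a collagen-binding protein, had 1351 FPKM at 48 h and 566 FPKM at 4 h (1.25). Periostin (Postn) had 259 FPKM at 48 h and 113 FPKM at 4 h (1.19). The CCN family gene Wisp2 had 16.4 FPKM at 48 h and 3.68 FPKM at 4 h (1.90). In vehicle the differences were also above 0, at 0.89 for Sparc, 0.89 for Postn and 0.77 for Wisp2. Before PE, SR9009 cultures had 390.5 FPKM of Postn and 29.6 FPKM of Wisp2, both above their 48 h values. Sparc had 1105 FPKM there, below its 48 h value but with overlapping bounds. The collagen and matrix genes are also expressed by fibroblasts, whose 11 measured markers had a median of 0.31 and a summed 1399 FPKM at 48 h and 981 FPKM at 4 h. These markers include matrix genes themselves, such as Col1a1, Col3a1 and Postn, and Postn was the 1 marker counted as higher. The sum is therefore no separate measure of fibroblasts. In vehicle 4 of the 11 markers were lower and 0 higher, and 4 met the rule between the arms on the higher side. The part of fibroblasts in these rises was not tested.

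The calcium release channel and its calcium store protein were higher late in PE. Of 20 measured calcium handling and contractile genes 2 were higher and 0 lower, and 17 lay above 0 (median 0.37). Ryr2, the calcium release channel, had 183 FPKM (bounds 153 to 212) at 48 h and 71.6 FPKM (bounds 61.3 to 82) at 4 h, a difference of 1.34 (0.89 to 1.77). Casq2, the calcium-binding protein that docks to it, had 698 FPKM (bounds 589 to 806) and 315 FPKM (bounds 268 to 362), a difference of 1.14 (0.70 to 1.58). Triadin (Trdn), of the same complex, had 39.8 FPKM at 48 h and 19.9 FPKM at 4 h (0.96) and did not meet the rule. The calcium pump Atp2a2 had 1803 FPKM at 48 h and 1539 FPKM at 4 h (0.23) and its inhibitor phospholamban (Pln) 2283 FPKM at 48 h and 1803 FPKM at 4 h (0.34).

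Vehicle cultures went the other way for several of these genes: 0 of 20 were higher and 5 lower, with a median of -0.22. Ryr2 stood at 77.7, 71.6 and 183 FPKM at 0, 4 and 48 h in SR9009, against 142, 159 and 93 FPKM in vehicle, and Atp2a2 had 908 FPKM at 48 h and 2876 FPKM at 4 h in vehicle (-1.66). The difference between the arms met the rule, on the higher side, for 8 of 20 genes, against 4.07% of all genes. It was 2.11 (1.23 to 2.98) for Ryr2, 1.89 (0.74 to 3.0) for Atp2a2, 1.15 (0.26 to 2.04) for Casq2 and 2.28 (1.66 to 2.90) for Hrc, a calcium-binding protein of the same store. Sarcomere genes did not meet the rule in SR9009, with differences of 0.43 for Tnnt2, 0.28 for the ventricular light chain Myl2 and -0.09 for the adult troponin I gene Tnni3. The myosin heavy chain genes had no usable value at 48 h in SR9009, with Myh6 at 1693 FPKM and Myh7 at 413 FPKM at 4 h.

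Ion channel genes rose in part. Of 19 measured, 5 were higher and 0 lower, with a median of 0.62. Cacna1g, a T-type calcium channel, had 61.5 FPKM at 48 h and 16.3 FPKM at 4 h (1.85, range 1.44 to 2.25). Kcnj2, the main inward rectifier that sets the resting potential of ventricular cells, had 28.2 FPKM at 48 h and 9.08 FPKM at 4 h (1.54, range 1.06 to 2.03). Kcnj11, the pore of the ATP-sensitive potassium channel, had 34.7 FPKM at 48 h and 14.5 FPKM at 4 h (1.20, range 0.80 to 1.61). Kcnq1, a delayed rectifier, had 50.8 FPKM at 48 h and 21.8 FPKM at 4 h (1.18) in SR9009. Its accessory subunit gene Kcne4 had 6.18 FPKM at 48 h and 2.49 FPKM at 4 h (1.04), which did not meet the rule after quantile normalization (0.86). Vehicle had 1 higher and 1 lower of 19. Kcnj2 stood at 28.4, 9.08 and 28.2 FPKM at 0, 4 and 48 h in SR9009, against 37, 8.50 and 10.7 FPKM in vehicle. Its 48 h value in SR9009 equalled the 0 h value within the bounds, and the difference between the arms was 1.23 (0.21 to 2.26).

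Some genes of energy metabolism met the rule, against 4.49% of all measured genes. Of 21 glycolysis genes 2 were higher and 1 lower. Aldoc, an aldolase isoform, had 168 FPKM (bounds 143 to 193) at 48 h and 31.1 FPKM (bounds 26.3 to 35.9) at 4 h in SR9009, a difference of 2.40 (1.97 to 2.83), against 24 FPKM at 48 h and 67.2 FPKM at 4 h in vehicle, a difference of -1.45 (-1.86 to -1.03). Eno3, the muscle enolase, had 160.4 FPKM at 48 h and 65 FPKM at 4 h (1.29). Hexokinase 2 (Hk2) was the lower one, with 12.5 FPKM at 48 h and 47.1 FPKM at 4 h (-1.83). Among 23 fatty acid oxidation genes 1 was higher, Pdk4, the kinase that shuts off pyruvate dehydrogenase (12.3 FPKM at 48 h and 4.09 FPKM at 4 h, 1.39). Of 30 oxidative phosphorylation genes 0 met the rule in SR9009, with a median of 0.09, against -0.53 in vehicle, and the difference between the arms was above 0 for all 30.

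Other leading rises lay outside the lists. Aqp1, a water channel, had 128 FPKM (bounds 111 to 146) and 20.7 FPKM (bounds 17.8 to 23.7), a difference of 2.57 (2.18 to 2.97), and it rose in vehicle too (148 FPKM at 48 h and 44.8 FPKM at 4 h, 1.70). Corin, the cardiac protease that cleaves pro-atrial natriuretic peptide, had 13.3 FPKM (bounds 11.2 to 15.3) and 1.69 FPKM (bounds 1.25 to 2.12), a difference of 2.41 (1.97 to 2.86), against 2.09 FPKM at 48 h and 3.95 FPKM at 4 h in vehicle (-0.68). Sdpr (cavin 2), a coat protein of caveolae, had 142 FPKM at 48 h and 29.2 FPKM at 4 h (2.24). Unc119, a carrier of lipid-modified proteins, had 185 FPKM at 48 h and 36 FPKM at 4 h (2.33). The 12 largest rises are completed by 3 less studied genes. Smim5 had 30.2 FPKM at 48 h and 5.60 FPKM at 4 h (2.24). Sbsn had 24.7 FPKM at 48 h and 4.44 FPKM at 4 h (2.24). Fam180a had 5.25 FPKM at 48 h and 0.543 FPKM at 4 h (2.02).

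The fetal gene programme, the usual readout of hypertrophy, was counted as higher for more of its genes in vehicle than in SR9009. Atrial natriuretic peptide (Nppa) had 1734 FPKM (bounds 1488 to 1980.2) at 48 h and 440.1 FPKM (bounds 380.4 to 499.9) at 4 h in SR9009, a difference of 1.98 (1.57 to 2.38), against 19205 FPKM at 48 h and 716 FPKM at 4 h in vehicle (4.74, range 4.20 to 5.25). Brain natriuretic peptide (Nppb) had 534 FPKM at 48 h and 763 FPKM at 4 h in SR9009 (-0.51, range -0.93 to -0.10), against 5588 FPKM at 48 h and 1208 FPKM at 4 h in vehicle (2.21, range 1.79 to 2.62). Skeletal actin (Acta1) had 754 FPKM at 48 h and 692 FPKM at 4 h in SR9009 (0.12, range -0.29 to 0.52), against 3129 FPKM at 48 h and 1536 FPKM at 4 h in vehicle (1.03, range 0.58 to 1.47). The differences between the arms were -2.77 (-3.67 to -1.82) for Nppa, -2.72 (-3.55 to -1.89) for Nppb and -0.90 (-1.75 to -0.06) for Acta1, the last of which did not meet the rule. Of 15 measured hypertrophy-associated genes, 1 was higher (Nppa) and 1 lower (Gdf15, a stress-induced cytokine, 38.4 FPKM at 48 h and 91.5 FPKM at 4 h, -1.23) in SR9009, against 6 higher and 1 lower in vehicle. The medians were -0.35 in SR9009 and 0.74 in vehicle, and 7 of 15 met the rule for the difference between the arms, all on the lower side.

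Cell cycle and lipid synthesis genes were widely higher at 48 h in vehicle, with 0 and 1 of them counted as higher in SR9009. Of 32 cell cycle genes 0 were higher or lower in SR9009, with a median of 0.21, against 22 higher and 0 lower in vehicle, with a median of 1.27, and 16 met the rule for the difference between the arms. Cdk1, the mitotic kinase, had 16 FPKM at 48 h and 15.6 FPKM at 4 h in SR9009, against 55.1 FPKM at 48 h and 19.1 FPKM at 4 h in vehicle. Of 28 sterol and fatty acid synthesis genes 1 was higher in SR9009 (Tm7sf2, a sterol reductase, 33.2 FPKM at 48 h and 14.2 FPKM at 4 h, 1.17), against 16 in vehicle, and 20 met the rule for the difference between the arms on the lower side. Scd1, which desaturates fatty acids, had 19.8 FPKM at 48 h and 18.3 FPKM at 4 h in SR9009, against 85.4 FPKM at 48 h and 8.56 FPKM at 4 h in vehicle, a difference between the arms of -3.07 (-3.82 to -2.32). Heat shock genes (0 of 13 counted) did not meet the rule in either arm.

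The late changes in SR9009 and in vehicle were weakly correlated over all genes. The 2 comparisons share no library, and their differences correlated with Pearson's r of 0.24 and Spearman's rho of 0.23 across 10394 genes, which are not independent replicates and share the gene lengths and the processing. The standard deviation of the differences over genes was 0.485 in SR9009 and 0.532 in vehicle. Of the genes higher at 48 h in SR9009, 41 were also higher in vehicle, 15.8% of the SR9009 genes and 10.2% of the vehicle genes, against 3.85% of all genes higher in vehicle and 2.49% higher in SR9009. Of those lower, 48 were shared, 23.1% of the SR9009 genes and 19.4% of the vehicle genes, against 2.37% of all genes lower in vehicle and 2.00% lower in SR9009. The change in SR9009 exceeded that in vehicle by the rule for 423 genes (4.07%) and fell short of it for 421 (4.05%). Among them were 122 of the 259 genes higher in SR9009 (47.1%) and 89 of the 208 lower (42.8%). These shares are raised by the choice of genes, because the difference between the arms contains the same SR9009 change. They cannot show how far the late changes are particular to SR9009.

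**Figure D5:**
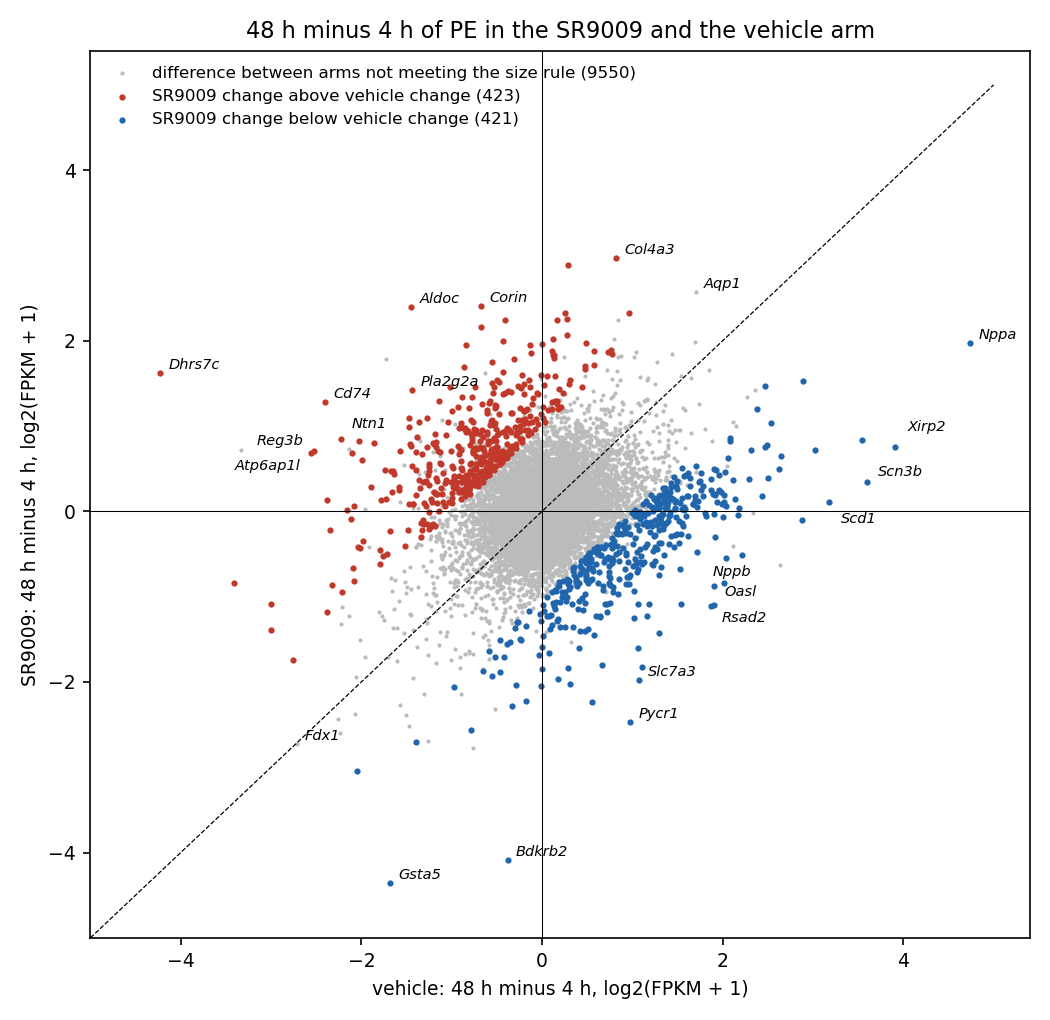
Each point is 1 of 10394 genes, with the difference of log2(FPKM + 1), 48 h minus 4 h of PE, in SR9009 on the vertical axis and in vehicle on the horizontal axis; the dashed line marks equal change. Coloured points meet the rule of size for the difference between the arms (423 above, 421 below); Dhrs7c lies farthest above the line, Bdkrb2 farthest below it among the genes named, and Fdx1 on it.

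The widest gap between the arms was at Dhrs7c, a dehydrogenase of the sarcoplasmic reticulum of striated muscle. It had 34.6 FPKM (bounds 29.3 to 39.9) at 48 h and 10.6 FPKM (bounds 8.34 to 12.8) at 4 h in SR9009 (1.62, range 1.14 to 2.13), against 1.76 FPKM (bounds 0.799 to 2.71) and 50.5 FPKM (bounds 42.8 to 58.3) in vehicle (-4.22, range -5.04 to -3.56), a difference between the arms of 5.85 (4.70 to 7.17). Reg3b, a secreted C-type lectin, had 2181 FPKM at 48 h and 1359.9 FPKM at 4 h in SR9009 (0.68), against 246 FPKM at 48 h and 1458 FPKM at 4 h in vehicle (-2.56). The guidance factor netrin (Ntn1) had 44.4 FPKM at 48 h and 24.1 FPKM at 4 h in SR9009 (0.85), against 7.35 FPKM at 48 h and 38.1 FPKM at 4 h in vehicle (-2.23). Atp6ap1l had 25 FPKM at 48 h and 14.9 FPKM at 4 h in SR9009 (0.71), against 6.34 FPKM at 48 h and 41.1 FPKM at 4 h in vehicle (-2.52). In the other direction, Xirp2, an actin-binding protein of the intercalated disc, had 15.2 FPKM at 48 h and 8.64 FPKM at 4 h in SR9009 (0.75), against 252 FPKM at 48 h and 15.8 FPKM at 4 h in vehicle (3.91). The sodium channel subunit gene Scn3b had 1.19 FPKM at 48 h and 0.729 FPKM at 4 h in SR9009 (0.34), against 23.9 FPKM at 48 h and 1.05 FPKM at 4 h in vehicle (3.60).

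Counts for markers of other cells in the cultures stand against the 4.49% of all measured genes that met the rule. Lists this short cannot show a share below that. Endothelial markers summed to 52.7 FPKM at 48 h and 55.1 FPKM at 4 h, with 0 of 9 measured members counted, although 8 of 9 had a difference below 0 (median -0.44). Smooth muscle and pericyte markers summed to 2142 and 1741 FPKM, with 0 of 11 counted. Macrophage markers were low, at a sum of 29.1 FPKM at 48 h and 19.7 FPKM at 4 h; 1 of 9 was higher, Cd74 (9.77 FPKM at 48 h and 3.42 FPKM at 4 h, 1.28), while the defining gene C1qa was at 0.674 FPKM at 48 h and 1.01 FPKM at 4 h. Schwann cell and mesothelial markers summed to 62.8 and 15.1 FPKM at 48 h and to 52.2 and 14.3 FPKM at 4 h, with 0 of 5 and 0 of 4 counted. Of the lymphocyte markers 0 were measured, with a sum of 0.569 FPKM at 48 h and 0.478 FPKM at 4 h.

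Haemoglobin mRNAs, made chiefly by red cell precursors, were lower: Hba1 had 20.8 FPKM (bounds 13.7 to 27.8) at 48 h and 131 FPKM (bounds 110.3 to 151) at 4 h (-2.60, range -3.37 to -1.95), and Hbb had 6.12 FPKM at 48 h and 35.9 FPKM at 4 h (-2.37, range -3.21 to -1.67). Vehicle gave 9.17 FPKM at 48 h and 47 FPKM at 4 h for Hba1 and 3.07 FPKM at 48 h and 16.1 FPKM at 4 h for Hbb. Summed over the erythroid list the SR9009 groups had 67.2, 183 and 30.5 FPKM at 0, 4 and 48 h, against 45.3, 76.1 and 14.6 FPKM in vehicle. The erythroid genes Alas2 and Slc4a1 were below 1 FPKM at both times, and the globin copies share sequence, so single copies are uncertain. Whether blood cells bear on the other falls at 48 h was not tested.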

How the data were processed

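Stranded mRNA libraries, 18 in 6 groups of 3, were sequenced per the labels' protocols. The tools FastQC, Trim Galore, TopHat and Cuffdiff and the build rn6 are listed, without versions, per the submitters' processing notes. The deposited table holds FPKM, per the file headers: 1 value per gene and group, with confidence bounds and a status, made by the authors from the 3 libraries. Values per library were not used here; neither depth nor the confidence level of the bounds is given. The bounds are the only error available.

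Groups were taken from the sample titles. Genes needed usable values above 0 in both groups and at least 1 FPKM as the mean of the 6 groups; a pseudocount of 1 FPKM was added before taking log2. A gene was counted where the difference was at least 1 and the widest range from the bounds excluded 0. The change in SR9009 minus that in vehicle followed the same rule over 4 groups that share no library. No p-value was computed.

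The members, the 28 pathway lists, the 9 cell type lists and the tests were chosen with earlier results of these data known, so the lists' counts are descriptions. Genes named are the 12 largest differences per direction with at least 5 FPKM in a compared group and a proper symbol, the 8 largest per direction between the arms, up to 5 members per list meeting the rule, and Nppa, Nppb, Acta1, Myh6, Myh7, Nr1d1, Nr1d2 and Arntl. List members are also named to say that they did not meet the rule. Some genes that met these rules are not reported here. Loci are those of the table (rn6). Promoter sequences are from RefSeq (GRCr8), where 8446 of the 10422 genes matched by symbol or by a synonym that pointed to a single symbol. Alternatives were another pseudocount, other filters, 3 scalings, a larger minimum difference and bounds added in quadrature. Python 3.11.15, pandas 2.3.3, numpy 2.4.6 and matplotlib 3.10.9 were used.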

Additional observations from a re-analysis of the deposited data

Results flagged for a closer look

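Between 48 h and 4 h of PE, 21 genes with at least 5 FPKM in 1 of the 4 groups moved in opposite directions in SR9009 and vehicle, past the rule of size in each arm. The difference between the arms was not tested, because each group has 1 value. Of the 208 genes lower in SR9009, 11 were higher in vehicle, against 3.85% of all genes. Of the 259 genes higher in SR9009, 10 were lower in vehicle, against 2.37% of all genes. More genes moved the same way, with 41 higher and 48 lower in both arms. In 11 of the 21 the SR9009 value was lower and the vehicle value higher at 48 h. The change in SR9009 minus that in vehicle was -3.06 for Slc7a3, -3.0 for Oasl, -2.98 for Rsad2, -2.92 for Srxn1, -2.72 for Isg15, -2.67 for Maoa, -2.62 for Adm2, -2.40 for Gdf15, -2.27 for Myc, -2.27 for Gprc5a and -2.15 for Inhba. Maoa, the monoamine oxidase that degrades noradrenaline and serotonin, had 49 FPKM at 48 h and 151 FPKM at 4 h in SR9009, against 70.6 FPKM at 48 h and 33.2 FPKM at 4 h in vehicle. Adm2, a peptide of the adrenomedullin family, had 1.34 FPKM at 48 h and 3.97 FPKM at 4 h in SR9009, against 6.69 FPKM at 48 h and 1.65 FPKM at 4 h in vehicle, and the orphan receptor gene Gprc5a had 2.70 FPKM at 48 h and 7.77 FPKM at 4 h in SR9009, against 23 FPKM at 48 h and 10.8 FPKM at 4 h in vehicle.

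In the other 10 the SR9009 value was higher and the vehicle value lower at 48 h. For 9 of them the differences between the arms were 2.08 for Irx4, 2.37 for Ckmt2, 2.41 for Mb, 2.43 for Clybl, 2.57 for Sepp1, 2.86 for Pla2g2a, 3.69 for Cd74, 3.84 for Aldoc and 5.85 for Dhrs7c. Myoglobin (Mb) had 1257 FPKM at 48 h and 607 FPKM at 4 h in SR9009, against 726 FPKM at 48 h and 1866 FPKM at 4 h in vehicle. The mitochondrial creatine kinase gene Ckmt2 had 38.8 FPKM at 48 h and 17.6 FPKM at 4 h in SR9009, against 15.8 FPKM at 48 h and 39.5 FPKM at 4 h in vehicle, and the ventricular transcription factor gene Irx4 had 81.5 FPKM at 48 h and 39.1 FPKM at 4 h in SR9009, against 21.2 FPKM at 48 h and 44.6 FPKM at 4 h in vehicle. The selenium carrier Sepp1 had 63.1 FPKM at 48 h and 29 FPKM at 4 h in SR9009, against 19.9 FPKM at 48 h and 57 FPKM at 4 h in vehicle, and the secreted phospholipase Pla2g2a had 23.6 FPKM at 48 h and 8.17 FPKM at 4 h in SR9009, against 2.77 FPKM at 48 h and 9.22 FPKM at 4 h in vehicle. Cd74 is also a macrophage marker, and the macrophage list summed to 29.1 FPKM at 48 h and 19.7 FPKM at 4 h in SR9009, against 34.5 and 59.4 FPKM in vehicle; the part of macrophages in its values was not tested.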

How the results depend on the processing

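No paired analysis was possible because the table holds 1 value per gene and group, and for the same reason no library could be left out. Counts at the settings used were 259 genes higher and 208 lower in SR9009, and 423 higher and 421 lower between the arms. A pseudocount of 0.1 FPKM gave 391 genes higher and 257 lower in SR9009, and 470 higher and 455 lower between the arms. A minimum difference of 1.5 gave 70 higher and 65 lower in SR9009, and 168 higher and 163 lower between the arms. The other alternatives gave 206 to 280 higher and 186 to 227 lower in SR9009, and 369 to 491 higher and 330 to 483 lower between the arms. No counted difference of a named gene changed sign under the alternatives run. Under quantile normalization Kcne4 (0.86) and Mfap2 (0.90) no longer met the rule in SR9009. The difference between the arms no longer met it for Gsta1 and Mt2A under a pseudocount of 0.1, equal sums or quantile normalization (-0.92 to -0.96 and -0.99 to -1.08). For Gsta5 it was lost at the smaller pseudocount (-2.10). Differences between the arms that met the rule only under an alternative were those of Cxcl1 (1.09), Rln3 (-1.43), Sbsn (1.40) and Fam180a (1.23) with bounds in quadrature, Fam180a (1.27) with equal sums, and Maff (-1.0) and Nop2 (-1.01) at the smaller pseudocount. With a mean of at least 5 FPKM, 1 interferon-stimulated gene and 1 ERK feedback inhibitor were lower, and 0 growth factor genes. The smaller pseudocount gave 5 growth factor genes higher. At the minimum difference of 1.5, 0 ribosome biogenesis genes and 2 ATF4 genes were lower. No scaling moved the median of all genes by over 0.06. Where the bounds are wide for their value, as for Rln3 and Sbsn, the range limits what can be said.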

Other observations

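In a few pairs of neighbouring genes both members were counted, and these moved the same way. Among 3049 pairs of measured genes whose loci lie within 10000 bases of each other in rn6, 201 held a counted gene, and in 10 both genes were counted. All 10 had the same direction, 3 with both genes higher and 7 with both lower. Of all measured genes 4.49% were counted, and how many such pairs this share alone would give was not worked out. Of the 7, 3 lie in the beta-globin cluster, whose copies share sequence, and these pairs have genes in common. Mt1a with Mt2A and Ccl2 with Ccl7 are also pairs of related genes. The genes named next were chosen after their values were seen. Kcnj11 and Abcc8, the pore and the sulfonylurea receptor subunit of the ATP-sensitive potassium channel, lie 4580 bases apart and had differences of 1.20 and 1.60 in SR9009. Htatip2 and Prmt3 lie 4141 bases apart and had -1.07 and -1.40, and Tmeff1 and Murc lie 480 bases apart and had -1.83 and -1.87. Murc is a coat protein of muscle caveolae and fell, whereas Sdpr, of the same family, rose by 2.24. Overlapping transcripts of such close genes cannot be told apart by their FPKM alone.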
